A study of Danio rerio with 12 samples.

Results

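The genes described here encode subunits of chromatin remodelling complexes and related bromodomain and ARID proteins, and were selected by a rule on gene names, set with earlier results of these data known. Of 25878 gene identifiers in the deposited table, 72 carried a name starting with SMARCA to SMARCE, CHD1 to CHD9, ARID1 to ARID5, INO80, RUVBL1 or RUVBL2, ACTL6, BPTF, BAZ1 or BAZ2, MTA1 to MTA3, RBBP4 or RBBP7, GATAD2, or BRD1 to BRD9. They were measured by low-input RNA sequencing in trunk neural crest of zebrafish embryos with the transgene sox10:H2B-Dendra2, in which the sox10 promoter drives a photoconvertible histone fusion in crest nuclei. The 4 premigratory libraries were taken at 16 hours after fertilisation and the 8 migratory libraries at 24 hours (23 to 24 hours in the design text), all labelled as control treatment, with 20 sorted cells per library. Premigratory nuclei were converted in a freehand area of the dorsal trunk and migratory nuclei as single leader and follower cells beside somites 10 to 15, so stage, age, position and way of marking cannot be told apart. Leader and follower libraries are not told apart in the labels, and several embryos were used per population.

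Chromatin remodellers are ATP-driven machines that slide, eject or exchange nucleosomes and so set which DNA is open to transcription, replication and repair. In vertebrates they fall into the BAF family (built on SMARCA4 or SMARCA2), the ISWI family (SMARCA5 or SMARCA1 with a BAZ protein or BPTF), the CHD family, whose CHD4 is the motor of the nucleosome remodelling and deacetylase complex NuRD, and the INO80 family with its RUVBL1 and RUVBL2 ring. In the neural crest, CHD7 is known for CHARGE syndrome in humans, in which crest-derived structures are malformed, and mutations of BAF subunits also cause human developmental syndromes.

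The deposited normalised values summed to 10735983 to 24227327 per library. The sum of the crest markers (6 of 6 found, 8 identifiers) ranged from 6302 to 22697 over premigratory and from 3425 to 58279 over migratory libraries. Of these identifiers, 2 stayed under 10 in every premigratory library and 1 in every migratory library. Markers of other tissues moved with single libraries and partly with the group. Muscle markers (6 of 8 found, 8 identifiers) ranged from 42.4 to 2708 over premigratory and from 743 to 688634 over migratory libraries, and 3 of their identifiers stayed under 10 in every premigratory library. Blood markers (5 of 6 found) reached 3610880 in migratory library 5, where crest markers were lowest, against 12.2 to 39455 in the other migratory and 6.38 to 7579 in the premigratory libraries. Epidermis markers (6 of 6 found) were highest, at 1165100, in premigratory library 1 (8413 to 170921 in the other premigratory and 408 to 401786 in the migratory libraries). Neural tube markers (5 of 5 found) summed to 15.6 to 16399 and 344 to 29682. No identifier of any of these lists was at 0 in all libraries of a group. Their part in the results was not tested unless a value is given below.

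Most member values were either under 10 or at 100 or more. Of the 864 member values, 333 were under 10, 71 lay from 10 to under 100 and 460 were at 100 or more. The number of members at 10 or more was 21, 39, 23 and 37 of 72 in premigratory libraries 1 to 4, and 46 to 56 (median 51) in the 8 migratory libraries. The groups did not overlap in this number. The same direction was seen over all tested genes. Of the 12122 genes that were tested, 28.8% to 52.5% were at 10 or more in a premigratory library and 64.0% to 84.9% in a migratory library, beside 33.9% to 62.9% and 74.2% to 88.7% of the 62 tested members. Of the 52 tested members at 10 or more in both groups, 37 (71.15%) had the higher median of such values in premigratory libraries. Of 9487 such tested genes, 61.25% did. The per-library median of member values at 10 or more averaged 1761 for the premigratory group and 674 for the migratory one. In bulk libraries of few cells, fewer cells expressing a gene and less of its RNA per cell cannot be told apart. The part of RNA missed in capture or amplification was not tested.

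**Figure D1:**
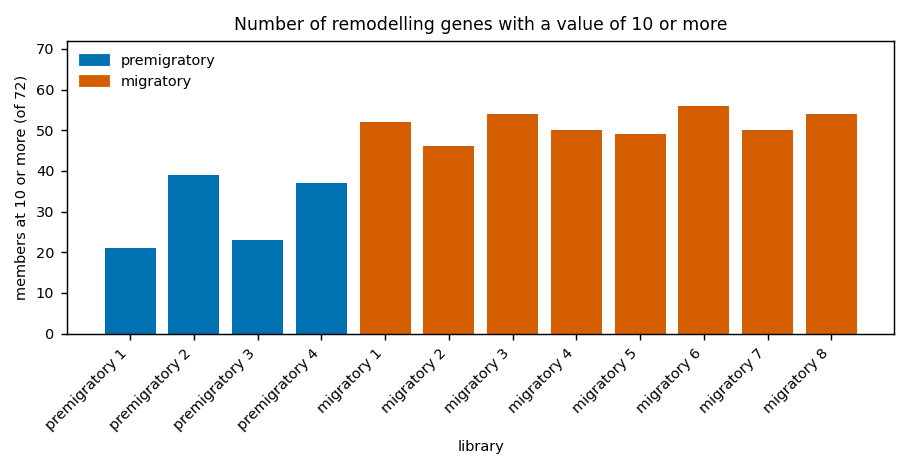
Bars give the number of members, of 72, with a deposited normalised value of 10 or more in each library, blue for premigratory and orange for migratory. Premigratory libraries 1 and 3 held 21 and 23 members, premigratory libraries 2 and 4 held 39 and 37, and every migratory library held 46 or more.

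A set of 8 members was present at 10 or more in all 12 libraries, and none of them passed the test between stages. They were SMARCA4 (identifier ENSDARG00000077226), the BAF motor; SMARCC1, a BAF scaffold; CHD4 and chd4b, paralogous NuRD motors; MTA2, a NuRD scaffold; RBBP4, a histone chaperone of NuRD and other complexes; brd3b, a BET family reader of acetylated histones; and arid3b, a DNA-binding protein. The 8 make up 12.9% of the tested members, and 9.51% of all tested genes were at 10 or more in every library. Of all tested genes, 12.4% were called higher and 0.132% lower. The median log2 fold change was -0.04 over the 8 and 0.21 over all tested genes at 10 or more in every library. Such a choice leaves out genes that were near 0 in a premigratory library, so the lack of calls is no result about the 8. RBBP4 was at 1980, 12221, 27403 and 5888 in premigratory libraries 1 to 4 and at 2876 to 25916 (median 13159) in migratory libraries. These ranges overlapped almost completely (log2 fold change 0.59, SE 0.66, adjusted p = 0.557). SMARCA4 was at 6925, 5800, 3168 and 5466 against 1118 to 8314 (median 4045). All its premigratory values lay within the migratory range (log2 fold change -0.61, SE 0.66, 95% interval -1.99 to 0.78). The lowest value of any of the 8 was 66.0, for MTA2 in premigratory library 4. MTA2 was otherwise at 3330, 12013 and 3446 in premigratory and at 963 to 4694 in migratory libraries (adjusted p = 0.980). SMARCC1 was at 1413, 193, 1568 and 128 against 219 to 2751 (median 971, adjusted p = 0.647). Smarca5, the ISWI motor, missed the set by 1 library, with 538 to 3784 in premigratory libraries, 9.04 in migratory library 4 and 958 to 3201 in the other migratory libraries (adjusted p = 0.732).

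**Figure D2:**
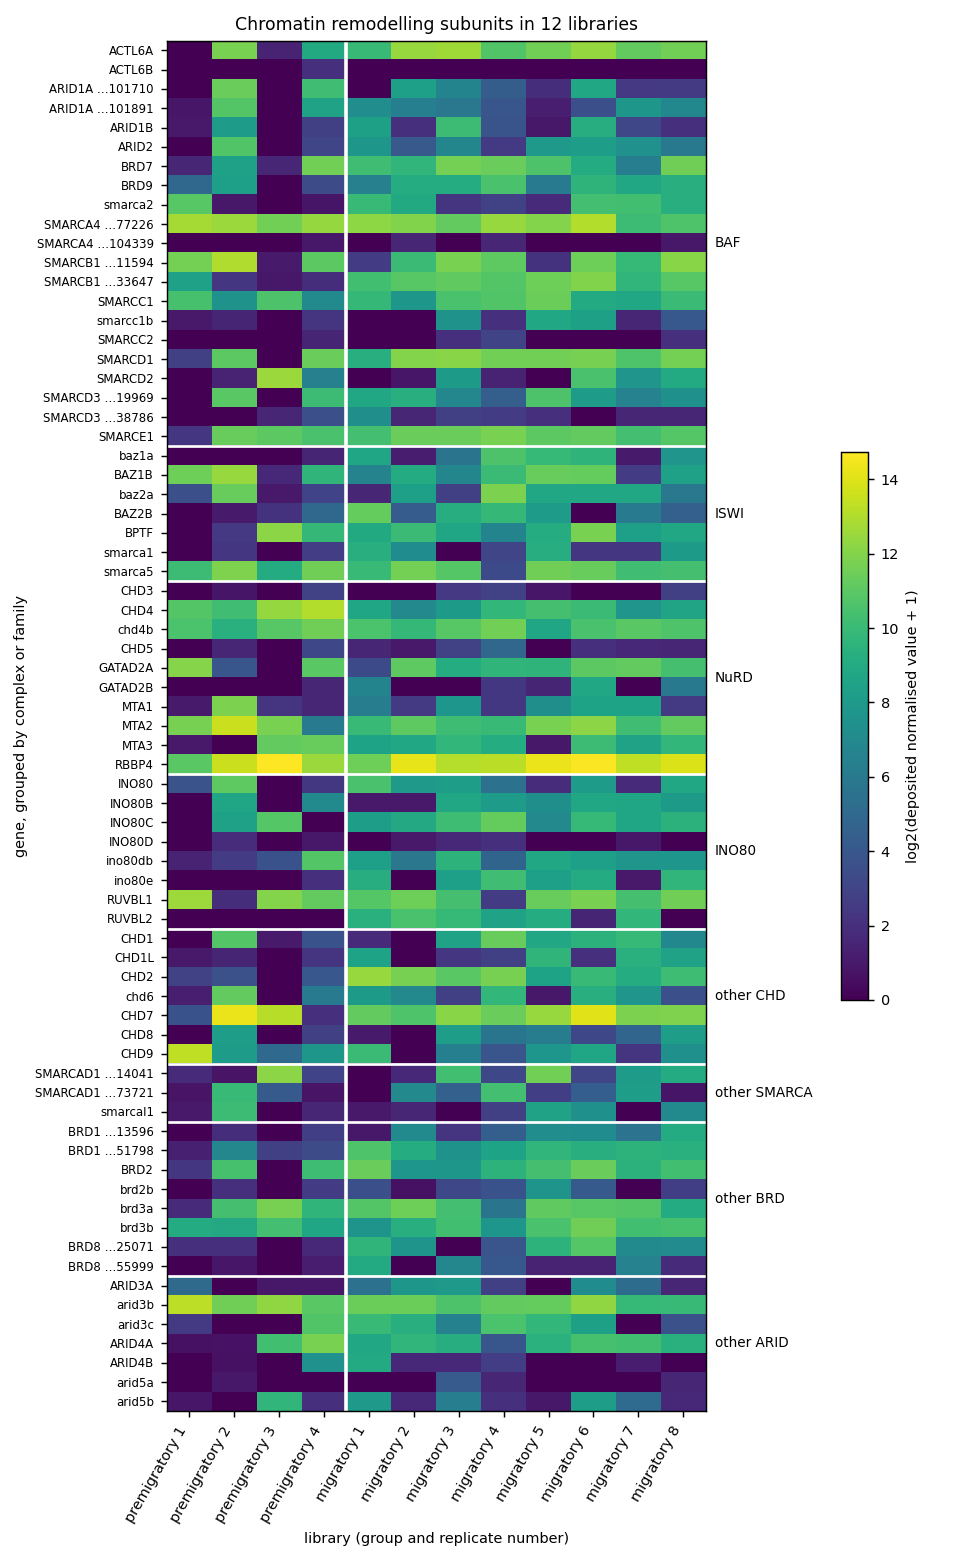
Rows are 71 of the 72 members, grouped by complex or family, columns are the 12 libraries with the premigratory ones left of the white line, and colour gives log2(deposited normalised value + 1). RBBP4, SMARCA4, CHD4 and chd4b are present in every column, while most other rows are near 0 in at least 1 premigratory library, most often in premigratory libraries 1 and 3.

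Between the stages, 7 members were higher in migratory libraries and 0 were lower. The test was limma on log2(value + 1) across the 12122 genes that reached 10 in 4 or more libraries, called at a Benjamini-Hochberg adjusted p under 0.05. The 7 are 11.3% of the 62 tested members, beside 12.4% of all tested genes called higher, and 0.132% of all tested genes were called lower. The members' share of higher calls is thus near the background and is no result about the members as a group. An unadjusted p under 0.05 was reached by 17 of the 62 members with higher and 1 with lower values. Over all 12122 tested genes these counts were 3850 and 80, so the 17 are no result about the members either. The median log2 fold change was 2.52 over the tested members and 2.67 over all tested genes, and 52 of 62 members (83.9%) and 85.5% of all tested genes had a positive value. The remaining 10 members did not pass the filter and were not tested: ACTL6B, SMARCC2, 1 identifier each of SMARCA4 (ENSDARG00000104339) and SMARCD3 (ENSDARG00000038786), CHD3, CHD5, GATAD2B, INO80D, ARID4B and arid5a. A member seen mainly in migratory libraries passes this filter more easily than one seen mainly in the 4 premigratory libraries.

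The call count changed when single libraries were left out. It was 3 without premigratory library 1 or 3, beside 1089 and 766 of all tested genes called higher. It was 4 without migratory library 5, 6 or 8, beside 1564, 1028 and 961. With all libraries, 1508 of all tested genes were called higher. The labels also call the replicate number a batch. With this number as a replicate block, 0 of the 62 members and 0 of all 12122 genes were called by limma. This block rests on the 4 pairs of libraries numbered 1 to 4. With it, 10 members had an unadjusted p under 0.05, all higher, beside 2241 higher and 81 lower of all tested genes. The block also leaves migratory libraries 5 to 8 without a part in the comparison. With migratory libraries 1 to 4 only and no block, 2 members and 239 genes were higher, and with the number as a random factor over all 12 libraries, 7 members and 1543 genes were. The centre of all tested genes depends on the scaling. Their median log2 fold change was 2.67 with the deposited values, 2.34 with equal totals, 2.37 with a trimmed mean and 0.61 after quantile normalisation. After quantile normalisation 1 member, SMARCB1 ENSDARG00000033647, and 223 of all tested genes were called higher. Fold changes below are therefore to be read against 2.67, although the calls are tests against 0. The 95% intervals of ACTL6A, BRD1 ENSDARG00000051798, baz1a and ino80e, 4 of the 7 called members, include 2.67. The 7 kept a positive sign under every scaling.

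**Figure D3:**
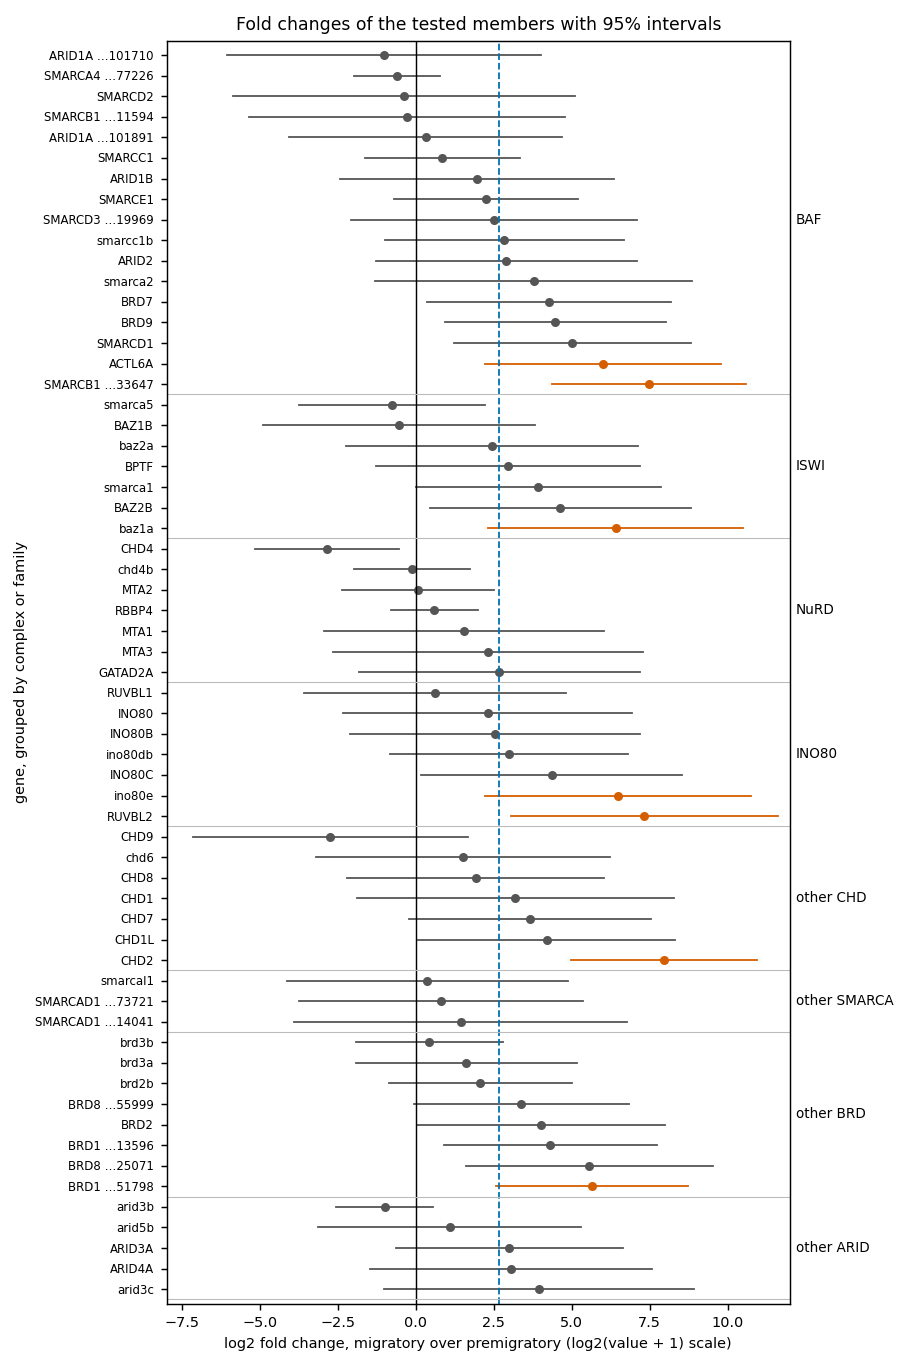
Points are log2 fold changes of 61 of the 62 tested members, migratory over premigratory, on the log2(value + 1) scale, with 95% intervals from limma, grouped by complex or family. Orange marks the 7 called members, the solid line is 0 and the dashed line is the median of all tested genes, 2.67. NuRD members lie at or left of that line (-2.86 to 2.68).

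In the BAF family, SMARCB1 ENSDARG00000033647 and ACTL6A rose, 2 of 17 tested members beside 12.4% of all tested genes, and 0 fell. SMARCB1, a core subunit that anchors BAF on the nucleosome, has 2 identifiers. Of these, ENSDARG00000011594 was not called (log2 fold change -0.29, adjusted p = 0.948). ENSDARG00000033647 was at 340, 4.01, 0.945 and 2.85 in premigratory libraries 1 to 4 and at 838 to 3965 (median 1926) in migratory libraries. Every migratory library lay above every premigratory library, and the log2 fold change was 7.49 ± 1.47 (SE; limma adjusted p = 0.00511). Such separation upwards was seen for 3 members in all and for 4.83% of all tested genes, and separation downwards for 0 members and 0.14% of all tested genes. The call held when any single library was left out (adjusted p at most 0.0154), but not with the replicate block (adjusted p = 0.188) or with migratory libraries 1 to 4 only (adjusted p = 0.121). Migratory was higher in 4 of 4 same-numbered pairs, which the full separation of the groups fixes in advance. ACTL6A, an actin-related subunit shared with INO80 and other complexes, was at 0, 3551, 1.80 and 502 in premigratory and at 1006 to 6472 (median 3057) in migratory libraries. Its groups overlapped through premigratory library 2 only (log2 fold change 6.01, SE 1.80, adjusted p = 0.0391). The ACTL6A call was lost without premigratory library 1 or 3 or migratory library 2, 3, 5, 6, 7 or 8, where the adjusted p was 0.0518 to 0.126. It was also lost with no filter (adjusted p = 0.0690), equal totals (0.0630), a trimmed mean (0.0552) and quantile normalisation (0.127). The same held with the replicate block (adjusted p = 0.217) and with migratory libraries 1 to 4 only (0.241). Of 26 alternatives, 11 kept the ACTL6A call.

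SMARCD1, SMARCE1, BRD7 and BRD9 were at 10 or more in all 8 migratory and in part of the premigratory libraries. SMARCD1, a subunit that links BAF to transcription factors, was at 5.97, 2116, 0 and 2661 against 606 to 4543 (log2 fold change 5.02, SE 1.80, adjusted p = 0.0734). Its adjusted p was 0.0290 without premigratory library 2 or without premigratory library 4, where its premigratory values were highest. Without other single libraries it reached up to 0.234. SMARCE1, an HMG box subunit, was at 4.07 in premigratory library 1, at 1452 to 2517 in the other premigratory libraries and at 1278 to 3481 in migratory libraries (adjusted p = 0.268). Thus 1 premigratory library set its mean difference. BRD7 of the PBAF form was at 1.94, 352, 1.95 and 3135 against 77.2 to 3256 (adjusted p = 0.126). Without single libraries its adjusted p was 0.0369 to 0.326, lowest without premigratory library 4, its highest premigratory value. BRD9 of the non-canonical form was at 30.2, 315, 0 and 9.15 against 69.8 to 1471 (adjusted p = 0.0847). For BRD9 the range without single libraries was 0.0303 to 0.233, lowest without premigratory library 2, its highest premigratory value. The large ARID subunits, which define BAF (ARID1A, ARID1B) and PBAF (ARID2), differed in sign. By limma, 0 of 4 identifiers were called, beside 12.4% of all tested genes called higher. ARID2 was at 0, 1683, 0 and 7.40 in premigratory and at 4.75 to 299 (median 142) in migratory libraries (log2 fold change 2.90, SE 1.99, adjusted p = 0.315). ARID1B was at 1.01, 279, 0 and 5.88 against 0.957 to 1090.2 (log2 fold change 1.96, SE 2.08, adjusted p = 0.535). ARID1A (ENSDARG00000101710) was at 0, 2677, 0 and 1198 in premigratory and at 0 to 456 (median 12.1) in migratory libraries. It was thus at its highest in 2 premigratory libraries and listed at 0 in the other 2 (log2 fold change -1.02, SE 2.39, adjusted p = 0.794). The second ARID1A identifier (ENSDARG00000101891) was at 0.884, 1781, 0 and 366 against 1.39 to 219 (adjusted p = 0.935). The alternative motor smarca2 was at 1898, 0.934, 0 and 0.778 against 2.38 to 1283 (adjusted p = 0.279). SMARCD2, SMARCD3 ENSDARG00000019969 and smarcc1b had adjusted p values of 0.281 to 0.936.

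Alternative subunits were compared as a share of their summed values in each library, a description with no test and no correction for gene length. ACTL6B, which replaces ACTL6A in mammalian neurons, was at 2.89 in premigratory library 4 and listed at 0 in the other 11 libraries. SMARCC2 took at most 1.44% of the sum with SMARCC1 (including smarcc1b) in any library. Both subunits stood near 0 at both stages. Smarca2 took 21.5%, 0.0161%, 0% and 0.0142% of the sum with SMARCA4 in premigratory and 0.0571% to 52.3% (median 12.4%) in migratory libraries. In ISWI, smarca1 took 0%, 0.107%, 0% and 0.179% of the sum with smarca5 against 0% to 45.8% (median 10.3%). Both shares overlapped between groups. CHD3 and CHD5 together took at most 0.836% of the sum with CHD4 and chd4b in any library. MTA2 took 99.9%, 76.7%, 59.1% and 2.56% of the 3 MTA genes in premigratory and 52.2% to 95.6% (median 70.8%) in migratory libraries, while MTA3 took 97.4% in premigratory library 4. GATAD2B took at most 0.101% of the sum with GATAD2A in the 3 premigratory libraries with a sum of 10 or more, and 0% to 91.7% in migratory libraries. ARID1B took 5.90% and 0.374% of the sum with ARID1A in premigratory libraries 2 and 4, the 2 with a sum of 10 or more, and 0.735% to 87.3% in 7 migratory libraries. ARID2 took 26.2% and 0.469% of the sum with both ARID1 genes in the same 2 libraries and 3.8% to 98.0% in migratory ones. BRD9 took 94.0%, 47.3% and 0.291% of the sum with BRD7 in premigratory libraries 1, 2 and 4 and 4.22% to 85.2% in migratory ones.

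In NuRD, 0 of 7 tested members passed the test by limma, beside 12.4% of all tested genes called higher and 0.132% called lower. With so few members, a count of 0 is no result about NuRD. At an unadjusted p under 0.05, 0 members were higher and 1 was lower, beside 3850 and 80 of all 12122 tested genes. The median log2 fold change of the 7 was 0.59, beside 2.67 for all tested genes, and 4 of the 7 were at 10 or more in every library. Over all tested genes at 10 or more in every library the median was 0.21. CHD4 had the lowest log2 fold change of all tested members. It was at 1796, 1209, 5447 and 8362 in premigratory libraries 1 to 4 and at 123 to 1344 (median 398) in migratory libraries. The groups overlapped only through premigratory library 2 and migratory library 5, and the migratory library was lower in 4 of 4 same-numbered pairs. The log2 fold change was -2.86 (SE 1.10, 95% interval -5.17 to -0.54, adjusted p = 0.0901), and it was not called under any alternative. Its paralog chd4b was at 1536, 647, 1918 and 3011 against 402 to 3166 (median 1570), and a log2 difference of -0.13 (SE 0.88, adjusted p = 0.935). MTA1 and MTA3 had adjusted p values of 0.639 and 0.519. GATAD2A, a scaffold that links CHD4 to the complex, was at 4352, 14.1, 0 and 1992 against 8.99 to 2383 (adjusted p = 0.396).

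Pairs of paralogs were compared by their log2 ratio within a library, with 1 added to each value. In the difference of this ratio between groups, library scaling and gene length largely cancel only where both values are well above 1. They do not where a paralog was near 0, as SMARCB1 ENSDARG00000033647 was in premigratory libraries 2 to 4 (0.945 to 4.01). Over all 12 pairs with the same name or the same name with a paralog letter, exact two-sided permutation of the libraries gave an adjusted p of 0.145 or more, so no pair passed. The log2 ratio of CHD4 to chd4b was 1.03 ± 0.60 over premigratory libraries (SD, n = 4) and -1.70 ± 1.63 over migratory libraries (SD, n = 8), with an exact permutation p of 0.0242 and 0.145 after adjustment over 12 pairs. For SMARCB1, the log2 ratio of ENSDARG00000011594 to ENSDARG00000033647 was 5.78 ± 4.96 (SD, n = 4) and -2.0 ± 4.09 (SD, n = 8), with an exact permutation p of 0.0202 and 0.145 after adjustment. Thus the difference between the 2 SMARCB1 identifiers in their response was not called. ENSDARG00000011594 was at 3218, 8185, 1.06 and 2122 in premigratory and at 3.45 to 4456 (median 1629) in migratory libraries (log2 fold change -0.29, SE 2.40, adjusted p = 0.948). The other 10 pairs had an exact p of 0.129 or more. The counting could have divided reads among similar paralogs.

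**Figure D4:**
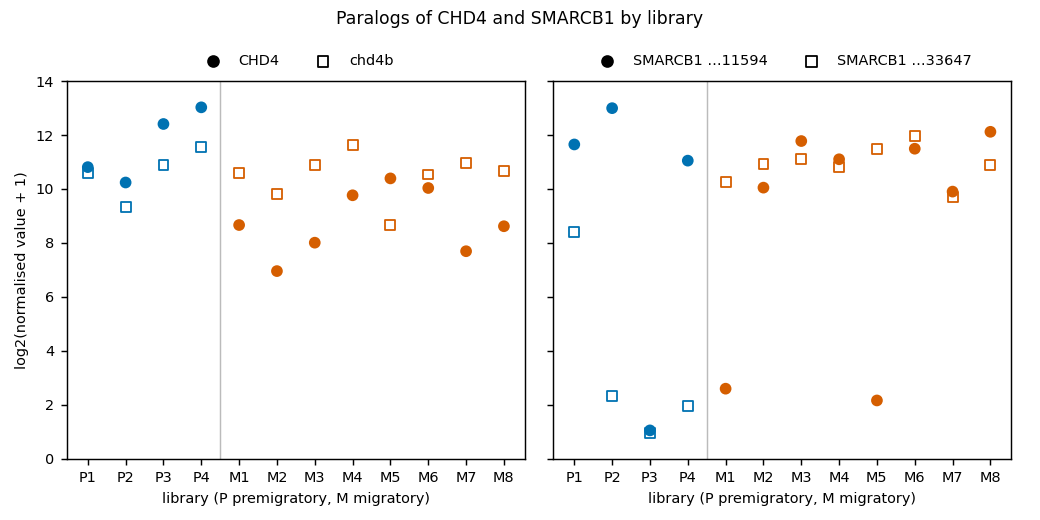
Each point is log2(deposited normalised value + 1) in a library (P1 to P4 premigratory in blue, M1 to M8 migratory in orange), with CHD4 and chd4b on the left and the 2 SMARCB1 identifiers on the right. CHD4 (filled) is lower in most migratory libraries while chd4b (open) overlaps between the groups, and SMARCB1 ENSDARG00000033647 (open) lies higher in all migratory than in all premigratory libraries.

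In the remaining CHD family, CHD2 rose, 1 of 7 tested members beside 12.4% of all tested genes, and 0 fell. CHD2, a remodeller that acts at active genes in mammalian cells, was at 6.33, 11.8, 0 and 15.3 in premigratory and at 381 to 5728 (median 1587) in migratory libraries. The groups were fully separated, and the log2 fold change, 7.95 (SE 1.41, adjusted p = 0.00227), was the largest of all tested members. The call held when any single library was left out (adjusted p at most 0.00808) but not with the replicate block (adjusted p = 0.158) or after quantile normalisation (adjusted p = 0.126). CHD7 was at 12, 20374, 9104 and 3.15 in premigratory and at 1636 to 17552 (median 3703) in migratory libraries. It was thus low in 2 premigratory libraries and at or above most migratory values in the other 2 (log2 fold change 3.66, SE 1.84, adjusted p = 0.173). Without single libraries the adjusted p of CHD7 was 0.0461 to 0.523, lowest without premigratory library 2, its highest value. CHD9 was at 10180, 271, 31.3 and 220 against 0 to 1079 (median 125), and premigratory library 1 stood above all others (log2 fold change -2.75, SE 2.09, adjusted p = 0.370). CHD1, a remodeller of transcribed genes, was at 0, 1787, 1.09 and 11.9 against 0 to 2522 (adjusted p = 0.369). CHD1L, a remodeller recruited to DNA damage by poly(ADP-ribose), was under 10 in all premigratory libraries and at 361 to 804 in 4 of 8 migratory libraries, with 0 to 5.94 in the other 4 (log2 fold change 4.19, SE 1.95, adjusted p = 0.149). CHD8 was at 0, 309, 0 and 6.07 against 0 to 307 (adjusted p = 0.517), and chd6 had an adjusted p of 0.667.

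In the INO80 family, RUVBL2 and ino80e rose, 2 of 7 tested members beside 12.4% of all tested genes, and 0 fell. Both were under 10 in every premigratory library, so they entered the test through migratory libraries alone. RUVBL2, a ring ATPase of INO80, SRCAP and TIP60 complexes, was listed at 0 in all 4 premigratory libraries. In migratory libraries 1 to 8 it was at 655, 1467, 923, 363, 559, 1.94, 865 and 0 (adjusted p = 0.0284), so 6 of 8 held it at 10 or more. Its partner RUVBL1 was at 6158, 2.87, 4151 and 2348 in premigratory and at 4.93 to 3483 (median 2208) in migratory libraries (log2 fold change 0.60, SE 1.99, adjusted p = 0.860). Both partners of the ring were at 10 or more in 5 of 8 migratory libraries. In premigratory libraries this count is 0 of 4 only because RUVBL2 was at 0 in all of them, while 3 held RUVBL1. Of all tested genes, 21.7% were under 10 in every premigratory library. Ino80e, an INO80 subunit, was at 0, 0, 0 and 2.95 in premigratory and at 0 to 1209 (median 425) in migratory libraries (log2 fold change 6.48, SE 2.03, adjusted p = 0.0455). The RUVBL2 call was lost without any 1 of the 4 premigratory libraries (adjusted p = 0.0512 to 0.0739). The ino80e call was lost without any premigratory library or without migratory library 1, 3, 4, 5, 6 or 8 (adjusted p = 0.0572 to 0.115). Both calls were also lost with no filter (adjusted p = 0.0673 for RUVBL2 and 0.113 for ino80e) and with a pseudocount of 10 (0.0709 and 0.0826). Array weights (0.102 and 0.176), the replicate block (0.158 and 0.191) and quantile normalisation (0.0727 and 0.129) lost both as well. The ino80e call was lost with equal totals (0.0615) and a trimmed mean (0.0580) too. Of 26 alternatives, 16 kept the RUVBL2 call and 6 the ino80e call. The motor INO80 was at 12.5, 2165, 0 and 4.17 against 2.51 to 1434 (median 259), with an adjusted p of 0.487. The subunits INO80B, INO80C and ino80db had adjusted p values of 0.442, 0.142 and 0.253. INO80C was listed at 0 in premigratory libraries 1 and 4 and was at 350 and 1876 in the other premigratory libraries, within its migratory range of 122 to 2417.

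In the ISWI family, baz1a rose, 1 of 7 tested members beside 12.4% of all tested genes, and 0 fell. Baz1a, the partner of SMARCA5 in the ACF and CHRAC complexes, was at 0, 0, 0 and 1.93 in premigratory and at 1.12 to 1603 (median 308) in migratory libraries. It was at 50.7 or more in 6 of 8 migratory libraries (log2 fold change 6.41, SE 1.94, adjusted p = 0.0402). The baz1a call was lost without any premigratory library or without migratory library 1, 3, 5, 6 or 8 (adjusted p = 0.0522 to 0.104). It was also lost with no filter (adjusted p = 0.105), with a pseudocount of 10 (adjusted p = 0.0951), with array weights (adjusted p = 0.171) and with the replicate block (adjusted p = 0.191). Equal totals (0.0540), a trimmed mean (0.0521), quantile normalisation (0.117) and migratory libraries 1 to 4 only (0.136) lost it too. Of 26 alternatives, 8 kept the baz1a call. Baz1a, too, was under 10 in every premigratory library. BAZ2B was at 0, 1.12, 3.44 and 29.6 against 0 to 2445 (median 178, adjusted p = 0.122). Smarca1, the second ISWI motor, was at 0, 4.07, 0 and 5.37 against 0 to 616 (median 74.3), with 4 of 8 migratory libraries at 10 or more (adjusted p = 0.154). BPTF, the large subunit of the NURF complex, was at 0, 4.51, 4637 and 894 against 100 to 3484 (adjusted p = 0.313). BAZ1B, the second BAZ partner of SMARCA5, was at 2840.2, 5750, 2.11 and 792 against 4.87 to 2513 (log2 fold change -0.55, SE 2.07, adjusted p = 0.877), and baz2a had an adjusted p of 0.466.

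The remodellers SMARCAD1 and smarcal1, known for DNA end resection and for replication fork repair, had no clear direction. By limma, 0 of 3 identifiers were called and 0 had an unadjusted p under 0.05. Over all 12122 tested genes, 12.4% were called higher, and 3850 were higher at an unadjusted p under 0.05. SMARCAD1 ENSDARG00000014041 was at 2.58, 0.686, 4626 and 6.94 against 0 to 3156 (adjusted p = 0.722). SMARCAD1 ENSDARG00000073721 was at 0.747, 1008, 17.3 and 0.744 against 0 to 1308 (adjusted p = 0.821). Smarcal1 was at 0.983, 1117, 0 and 1.95 against 0 to 363 (adjusted p = 0.925). Each was above 100 in 1 premigratory library and in 3 or 4 migratory libraries.

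Among bromodomain proteins outside these complexes, BRD1 ENSDARG00000051798 rose, 1 of 9 tested members beside 12.4% of all tested genes, and 0 fell. BRD1 is a scaffold of a histone acetyltransferase complex. Its identifier ENSDARG00000051798 was at 1.47, 112, 5.91 and 9.17 in premigratory and at 185 to 1670 (median 623) in migratory libraries. The groups were separated, and the log2 fold change was 5.65 (SE 1.46, adjusted p = 0.0207). The call held when any single library was left out (adjusted p at most 0.0454), but not without premigratory library 1 and migratory library 5 together (adjusted p = 0.0522). It was also lost with the replicate block (adjusted p = 0.269), with migratory libraries 1 to 4 only (adjusted p = 0.195) and after quantile normalisation (adjusted p = 0.717). BRD8 (ENSDARG00000025071), a subunit of the TIP60 acetyltransferase complex, was at 0 to 2.90 in premigratory and at 0 to 1815 (median 165) in migratory libraries (log2 fold change 5.56, SE 1.88, adjusted p = 0.0603). Its adjusted p was 0.0279 without migratory library 3 and 0.0444 without migratory library 4, and up to 0.156 without other single libraries. The BET reader brd3b was at 535, 484, 1302 and 421 against 200 to 2937 (adjusted p = 0.813). BRD1 ENSDARG00000013596 was at 0, 2.81, 0 and 5.58 in premigratory and at 0.936 to 544 (median 87.0) in migratory libraries (log2 fold change 4.31, SE 1.62, adjusted p = 0.0846). Without single libraries its adjusted p was 0.0449 to 0.201, lowest without migratory library 1. BRD2, brd2b, brd3a and BRD8 ENSDARG00000055999 had adjusted p values of 0.152 to 0.527.

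Of 5 tested ARID3, ARID4 and ARID5 genes, which encode DNA-binding proteins and a corepressor subunit, 0 were called by limma. None had an unadjusted p under 0.05. Over all 12122 tested genes, 12.4% were called higher, and 3850 were higher at an unadjusted p under 0.05. Arid3b was at 9719, 3012, 4926 and 2038 against 948 to 5046 (median 2395), and a log2 difference of -1.01 (SE 0.74, adjusted p = 0.354). ARID3A was at 33.4, 0, 0.968 and 0.968 against 0 to 252 (adjusted p = 0.231), and arid3c at 4.67, 0, 0 and 1676 against 0 to 1523 (adjusted p = 0.246). ARID4A was under 1 in premigratory libraries 1 and 2 and at 1231 and 3463 in premigratory libraries 3 and 4, against 14.4 to 1387 (adjusted p = 0.329), and arid5b had an adjusted p of 0.733.

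**Figure D5:**
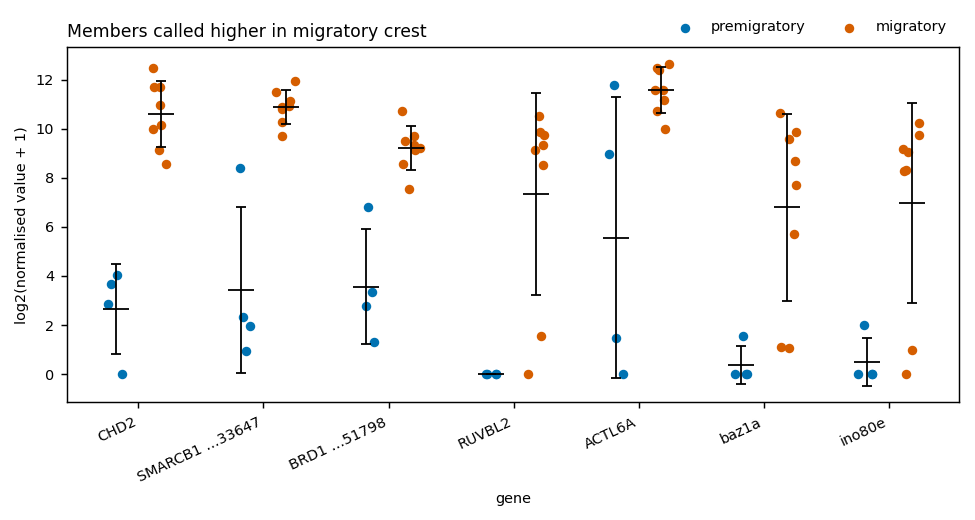
Points are log2(deposited normalised value + 1) of the 7 called members in 4 premigratory (blue) and 8 migratory (orange) libraries, with the mean and SD of each group in black. CHD2, SMARCB1 ENSDARG00000033647 and BRD1 ENSDARG00000051798 show no overlap, while RUVBL2, baz1a and ino80e were near 0 in 2 of 8 migratory libraries each.

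Muscle markers were low in 3 migratory libraries. Migratory libraries 3, 4 and 7 had summed muscle markers of 1427, 1707 and 743, under the highest premigratory sum of 2708. In these 3 libraries CHD2 was at 2022, 3353 and 566 and SMARCB1 ENSDARG00000033647 at 2232, 1787 and 838. BRD1 ENSDARG00000051798 was at 185, 378 and 732, and RUVBL2 at 923, 363 and 865. The values of these 4 genes lay above every premigratory value of the same gene. For CHD2, SMARCB1 ENSDARG00000033647 and BRD1 ENSDARG00000051798 this held in all migratory libraries, so any choice of migratory libraries would give it. RUVBL2 had no signal in any premigratory library, so any migratory library with a signal of it would give the same. The other 3 called members were not above all their premigratory values in each of the 3 libraries. ACTL6A was at 6472, 1708 and 2320 (highest premigratory value 3551), baz1a at 50.7, 1603 and 1.12 (highest premigratory value 1.93) and ino80e at 319, 1209 and 0.995 (highest premigratory value 2.95). The part of muscle markers in the calls was not tested. Migratory library 5, rich in blood markers, had the lowest migratory value of CHD2 at 381. RUVBL2 (559) and ino80e (314) were also under their migratory medians of 607 and 425 there. SMARCB1 ENSDARG00000033647 (2862), BRD1 ENSDARG00000051798 (840), baz1a (932) and ACTL6A (3059) were above theirs of 1926, 623, 308 and 3057. The part of blood markers was not tested.

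A further list of 60 remodelling subunits that the name rule does not cover matched 65 identifiers, of which 57 were tested, 10 rose and 0 fell. This is 17.5%, beside 12.4% of all tested genes, with a median log2 fold change of 3.18, beside 2.67 over all tested genes. The list was chosen with earlier results of these data known, so this share is a description only. With the fixed replicate block, 0 of all tested genes were called, these 10 included. The 10 were SS18, DPF2 (ENSDARG00000012219; the second identifier, ENSDARG00000037291, was not called, with an adjusted p of 0.176) and BICRAL of BAF complexes, ACTR5, ACTR8 and MCRS1 of INO80, and ZNHIT1, DMAP1, ING3 and MORF4L1 of SRCAP or TIP60 complexes. ACTR5, ACTR8, ZNHIT1, DMAP1 and BICRAL were under 10 in every premigratory library, so they entered the test through migratory libraries alone. Of all tested genes, 21.7% were under 10 in every premigratory library. DMAP1 was at 2.19, 3.21, 0 and 6.46 in premigratory and at 11.7 to 1839 (median 986) in migratory libraries (log2 fold change 7.63, SE 1.63). DMAP1 and BICRAL were the 2 of the 57 whose groups were separated, beside 4.83% of all tested genes separated upwards. BICRAL was separated by its lowest migratory value of 1.91 over a highest premigratory value of 1.87, both near 0. ACTR5, listed at 0 in every premigratory library, ranged from 0 to 716 (median 224) over the migratory ones. SS18 was at 1.01, 3986, 0.994 and 1.98 against 658 to 4530 (log2 fold change 6.92, SE 1.84).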

How the data were processed

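Low-input RNA-seq libraries (SMART-Seq v4 amplification, Nextera library preparation) of 20 sorted cells were compared, 4 premigratory and 8 migratory. The submitters' processing notes name fastp 1.0, Salmon and the build GRCz11; the normalisation is not given in the sources used here. The authors deposited a normalised signal per gene identifier, not whole counts, so no count model was used and the read depth is unknown. Values are not corrected for gene length.

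The 12122 of 25878 genes that reached 10 in 4 or more libraries were tested in limma 3.58.1 (R 4.3.3) on log2(value + 1), with a trended prior, and Benjamini-Hochberg adjustment over all of them. Fold changes on this scale understate changes of low genes. How the test behaves on values split between under 10 and 100 or more, as most member values here were, was not tested. The titles call each library a biological replica, but the labels do not say whether the libraries came from separate embryos. The p-values therefore reflect only the spread among these libraries, which may be technical in part. No pair of libraries was a duplicate (highest Pearson correlation 0.805). The rule on names and the lists were chosen with earlier results of these data known.

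The labels also call the replicate number a batch, and libraries 1 to 4 of both groups share it. Deviations of same-numbered libraries from their group means correlated at 0.0118 to 0.155 (mean 0.0609), and those of other pairs at a mean of -0.0087, with a highest value of 0.1235, above 3 of the 4 same-numbered pairs. Migratory libraries 5 to 8 have no premigratory partner. A fit without this block was the main one.

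Genes named with values were all called or separated members, in each family the 2 with the smallest p, the 3 lowest fold changes, the motors, the members present in every library and the called genes of the further subunit list; others were added after their values were seen. The result of 1 member is not reported here, though counts include it. The paralog ratios (SciPy 1.17.1) were also chosen after seeing the data. Alternatives covered the pseudocount, filter, scaling, weights, block and leaving out libraries.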

Additional observations from a re-analysis of the deposited data

Results flagged for a closer look

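In 7 of 66 groups of values examined, the highest or lowest library stood far from the others on the log2(value + 1) scale. The usual chance rate of about 1 in 20 need not hold here, as many values are near 0. The 7 of 66 are therefore not read as an excess. In premigratory libraries, ino80e stood apart with 2.95 and baz1a with 1.93 in library 4, both under 10, where the other 3 libraries were at 0. BRD8 ENSDARG00000025071 stood apart with 0 in premigratory library 3, where all its premigratory values were under 10. Smarca2 did so with 1898 in premigratory library 1 and smarcal1 with 1117 in premigratory library 2. In migratory libraries, GATAD2A stood apart with 8.99 in library 1 and smarca5 with 9.04 in library 4.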

How the results depend on the processing

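All 7 called members kept a positive log2 fold change under all 26 alternatives, and 0 members were called lower under any of them. The number of members called higher, 7, was 4 with a pseudocount of 10, with equal totals, with a trimmed mean or with array weights, 3 with no filter, 2 with migratory libraries 1 to 4 only, 1 after quantile normalisation and 0 with the fixed replicate block. With the number as a random replicate block it was 7. It was 2 without premigratory 1 and migratory 5 together, a choice made after seeing the data, and 3 to 7 when single libraries were left out. Over all tested genes, 1508 higher became 821 with a pseudocount of 10, 1056 with equal totals, 1155 with a trimmed mean and 1311 with array weights. The count was 851 with no filter, 223 after quantile normalisation and 239 with migratory 1 to 4 only. It was 0 with the fixed replicate block (2241 at an unadjusted p under 0.05) and 1180 without premigratory 1 and migratory 5 together. Without single libraries it was 766 to 1843, lowest without premigratory 3. The 16 lower became 7, 34, 2 and 0 with no filter, quantile normalisation, migratory 1 to 4 only and the fixed block, 5 with array weights and 6 to 19 without single libraries. The median log2 fold change of the members was 0.22 after quantile normalisation and 1.66 to 3.06 without single libraries. The difference of group medians in members present, 21, was 17 at a minimum value of 1 and 14 to 28 without single libraries. Of the 55 tested members not called, 6 were called under some alternative and 27 changed sign under some. The CHD4 to chd4b ratio had an exact permutation p of 0.00606 to 0.0606 without single libraries, above 0.05 without premigratory 3 or 4. The SMARCB1 ratio had 0.0121 to 0.0606, above 0.05 without premigratory 1, 2 or 4, and 0.0857 with migratory 1 to 4 only. The causes of these changes were not tested. The read depth is unknown, so a value near 0 gives no limit on the level.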
